A study of Mus musculus with 5 samples.

Results

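The genes described here encode enzymes and carriers with which the liver breaks down amino acids and disposes of their nitrogen as urea. The set holds 40 mouse genes, chosen by name and grouped by the amino acid that each enzyme acts on, and a member was measured when the RefSeq accession of an array probe matched its symbol. Of the 40 genes, 35 had such a probe and 30 could be tested, out of 14917 named genes tested on the arrays. Haao, Amdhd1, Amt, Cps1 and Slc25a15 were not matched to a probe and were not analysed here. Hgd, Gstz1, Ftcd, Agxt and Gpt2 had a probe, but the scanner software marked too many of its spots as outliers for a test.

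The livers came from male C57BL/6N mice that were fed an ethanol diet (EtOH) for 8 weeks and given 3 EtOH binges at 5 g/kg. The 5 samples form a single group, called livers 1 to 5, and each was labelled with Cy5 and hybridised on its own 2-colour Agilent array against a purchased RNA labelled with Cy3. The labels name that RNA as Ambion Mouse Assorted Total RNA and give its tissue as liver and its strain as C57BL/6N. No age is given, no array had the dyes exchanged, and livers from mice on another diet were not analysed here, so every ratio below sets an EtOH liver against the purchased RNA and none measures the effect of ethanol. No label ties the samples to separate mice, so the p-values rest on the spread over these samples, which may be technical, and they leave out the spread of the purchased RNA.

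Amino acids that are not used for protein lose their nitrogen in the liver, mostly by transfer to glutamate or aspartate or by release as ammonia. The urea cycle, which starts in the mitochondria of periportal hepatocytes and ends in the cytosol, joins both sources of nitrogen into urea, and the remaining carbon skeletons feed glucose synthesis, ketone body synthesis or the citric acid cycle. Transcription of many of these enzymes is known to follow glucagon, glucocorticoids and fasting.

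Values are log2 ratios of liver over the purchased RNA, called the reference RNA, so that 0 means equal signal and a negative value means less signal in the liver. The mean ratio of each gene was tested against 0 with limma, and a gene passed when its adjusted p, by the Benjamini-Hochberg method over all genes tested, was under 0.05. Arrays measured a probe's signal and not a number of molecules, so ratios are compared within a gene and signals are not compared between genes. The number of arrays, 5, limits the precision of every mean.

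The members lay below the reference RNA more often than above it. The means of 21 members were below 0 and those of 9 were above, with a median over the 30 members of -0.18, against a median of -0.02 over all genes tested. Below the reference RNA, 7 members passed (23.3%), where 12.8% of all genes tested did. Above it, 1 member passed (3.33%), where 14.2% of all genes tested did. In either direction, 27% of all genes tested passed. With median centring in place of loess, 11 members passed below and 0 above. Of all 14917 genes tested, 2078 then passed below and 1673 above, against 1904 and 2119 with loess. No member passed with a mean difference of 2-fold or more, which 0.416% of all genes did below the reference RNA and 0.858% above it. The 7 that passed below were Hal, Otc, Gls2, Prodh, Ass1, Ivd and Bckdha, and the 1 above was Nags.

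**Figure D1:**
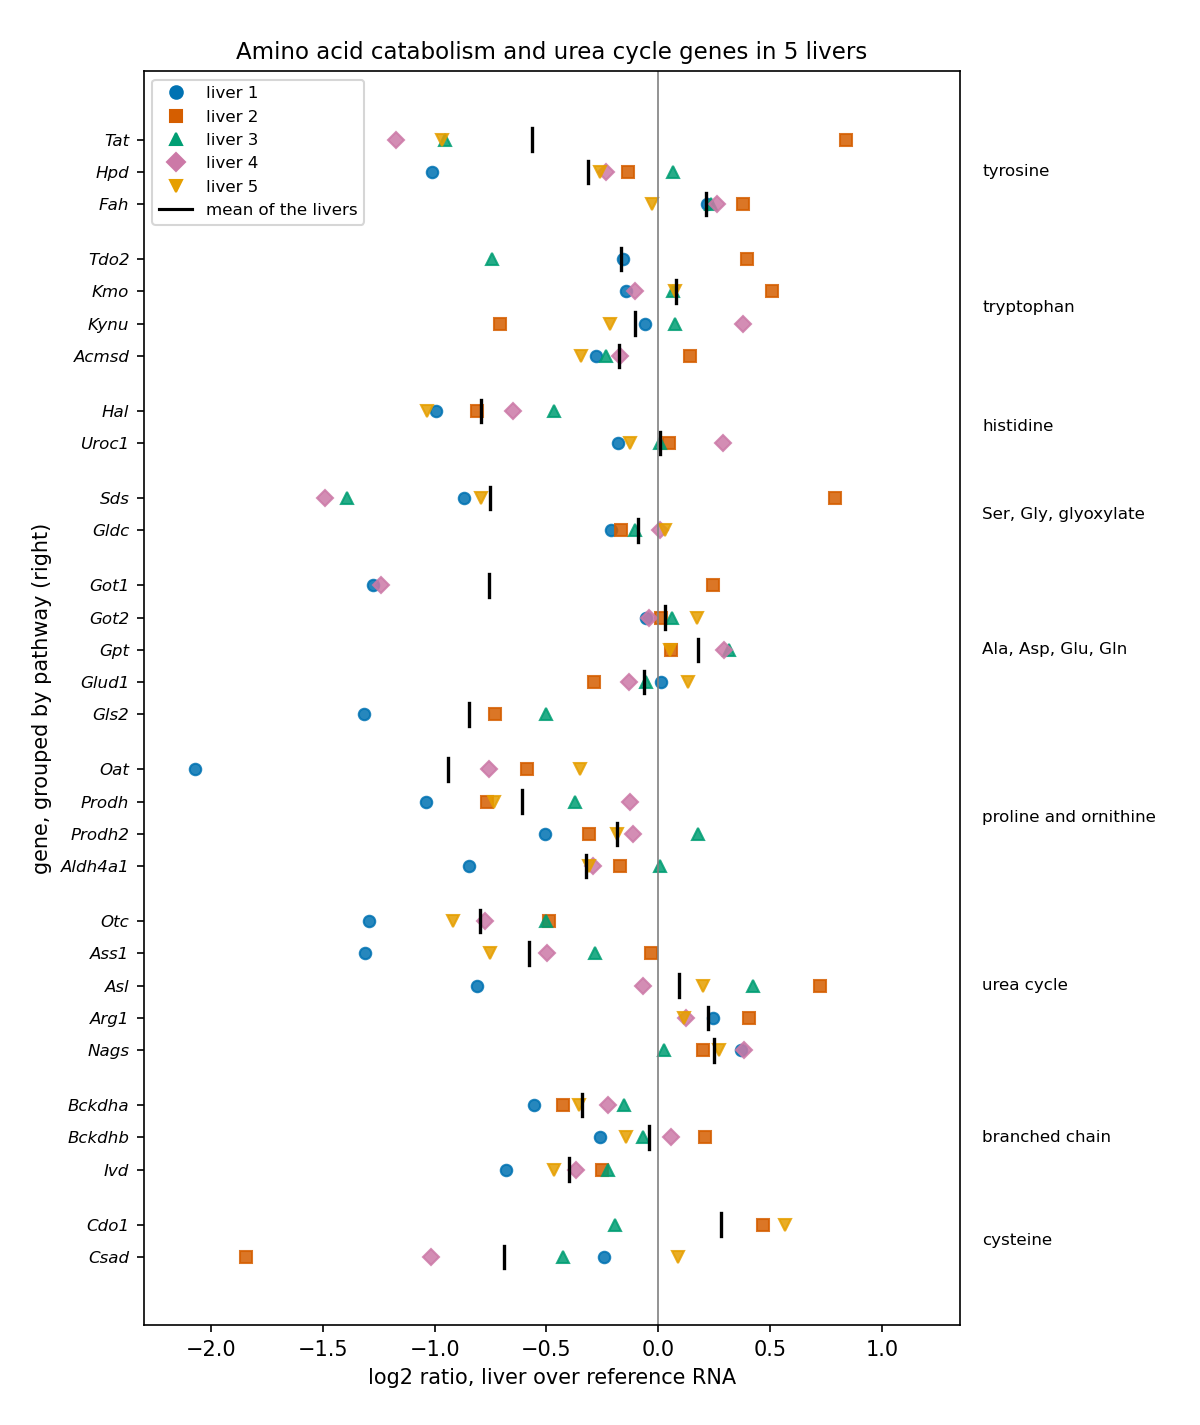
Log2 ratio of liver over reference RNA (horizontal axis) for the 30 members tested (vertical axis, grouped by pathway), with 1 symbol per liver and a black bar at the mean. Hal, Otc, Prodh, Ass1, Ivd and Bckdha lie below 0 in every liver, Oat of liver 1 lies farthest to the left at -2.07, and Tat and Sds have their liver 2 value at 0.84 and 0.79 with the rest below 0.

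General hepatocyte markers were brighter in the livers than in the reference RNA, unlike most members and most markers of periportal and pericentral hepatocytes. All 9 hepatocyte markers tested, such as albumin and the fibrinogen genes, had means above 0 and 6 of them passed above, with a median of 0.80 and medians by liver of 1.04, 0.91, 0.20, 0.61 and 1.31 for livers 1 to 5. Their summed signal ran over arrays from 877000 to 979000 in the livers, against 374000 to 577000 in the reference RNA. The sums given here and below are of background-subtracted signals, not normalized between the dyes, and the brightest probes weigh most in them. Among other cell types, 8 of 10 Kupffer cell and macrophage markers and 4 of 8 sinusoidal endothelium markers passed below. Their summed signals were 7940 to 11100 and 2760 to 4630 in the livers. Those in the reference RNA were 10400 to 16500 and 3180 to 5450. Of 8 stellate cell, 6 bile duct and 6 neutrophil markers tested, 1, 2 and 0 passed below and 0 passed above. The medians of these 3 lists were -0.11, -0.01 and -0.02. All 4 periportal hepatocyte markers tested had means below 0 and 2 passed below, with a median of -0.26. G6pc, the last enzyme of glucose release, was the lowest of them, at -1.79 ± 1.03 (SD, n = 5). Aldh1b1, Hsd17b6 and Cdh1 averaged -0.42, -0.09 and -0.08. Of 8 pericentral hepatocyte markers tested, 6 had means below 0 and 2 above. Among these 8, 2 passed below and 0 above, with a median of -0.16. Markers of kidney, brain and muscle were tested on 7, 7 and 4 genes, of which 2, 3 and 1 passed above and 1, 1 and 2 passed below. The hepatocyte, Kupffer cell and sinusoidal endothelium markers tested were all well above background in both channels on every array, so none of them was at background. In bulk liver RNA, fewer cells of a type and less RNA per cell cannot be told apart, and the part of these marker differences in the members' ratios was not tested.

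**Figure D2:**
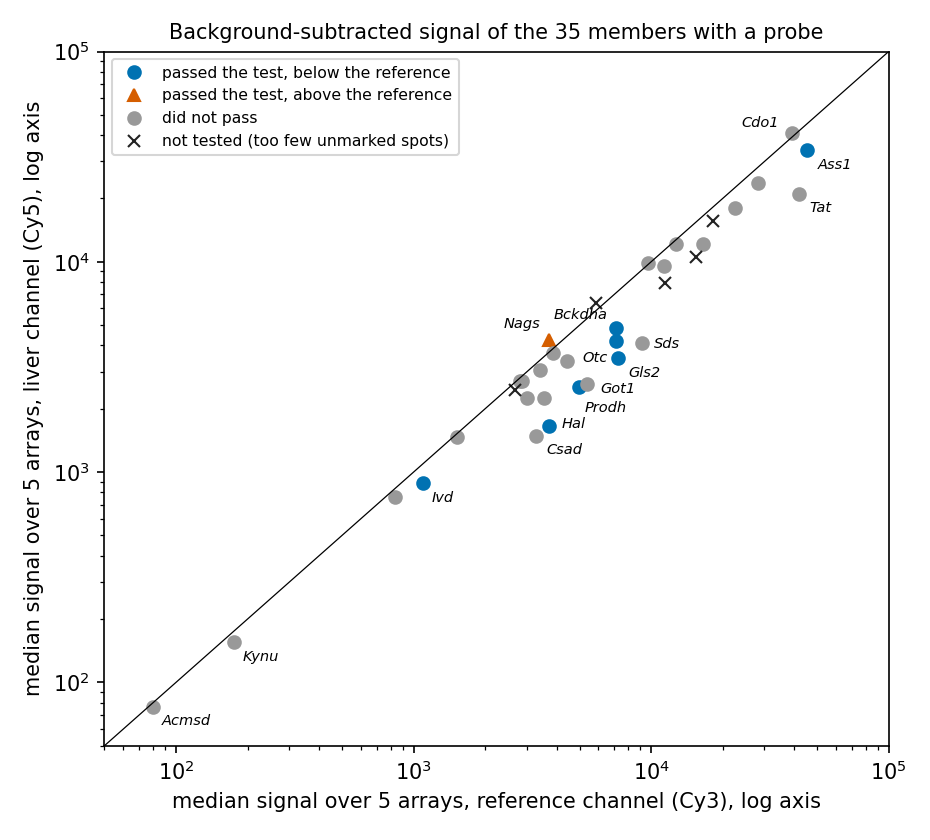
Median background-subtracted signal over the 5 arrays in the liver channel (vertical, log axis) against the reference channel (horizontal, log axis) for the 35 members with a probe, each at its brightest probe, with the line of equal signal. Acmsd, close to background, had a median signal of 76.6 in liver and 80.1 in the reference RNA, and most points lie on or under the line.

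The clearest member below the reference RNA was Hal, which encodes histidase, the enzyme that releases ammonia from histidine in the first step of its breakdown. Hal had log2 ratios of -0.996, -0.81, -0.47, -0.65 and -1.03 in livers 1 to 5. All livers lay below 0, liver 5 and liver 1 farthest. The mean was -0.79 ± 0.24 (SD, n = 5), that is 1.73-fold lower in liver than in the reference RNA, with an adjusted p of 0.001465. Uroc1, whose urocanase takes the next step of the same path, lay on both sides of 0, with a mean of 0.01 ± 0.18 (SD, n = 5) and an adjusted p of 0.9475. Whether the ratios of these genes differ was not tested. Ftcd, which hands the one-carbon unit of histidine to folate, was not tested, and with its marked spots kept it averaged -0.23 ± 0.24 (SD, n = 5).

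In the urea cycle, some enzymes lay below the reference RNA and others on or above it. Otc encodes ornithine transcarbamylase, which makes citrulline in the mitochondria, and its log2 ratios were -1.29, -0.49, -0.50, -0.77 and -0.92 in livers 1 to 5. Every liver lay below 0 and liver 1 was the lowest. The mean was -0.80 ± 0.33 (SD, n = 5), 1.74-fold lower in liver, with an adjusted p of 0.003127. Ass1 encodes argininosuccinate synthase, which brings in the nitrogen of aspartate, and it had -1.31, -0.03, -0.28, -0.50 and -0.75 in livers 1 to 5. All values were below 0, but that of liver 2 was close to it. The mean of Ass1 was -0.58 ± 0.49 (SD, n = 5), 1.49-fold lower in liver, with an adjusted p of 0.03656. This call ended without liver 3, without liver 4 or without liver 5 (adjusted p 0.0519, 0.0876 and 0.103) and when arrays were scaled to each other (0.051).

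Nags encodes N-acetylglutamate synthase, which makes the activator of the cycle's entry enzyme, and it was the 1 member that passed above the reference RNA. Its log2 ratios were 0.37, 0.20, 0.03, 0.39 and 0.27 in livers 1 to 5. No liver lay below 0, and liver 3 was nearly at it. The mean was 0.25 ± 0.15 (SD, n = 5), 1.19-fold higher in liver, with an adjusted p of 0.04048. The call ended without liver 1, 2, 4 or 5 (adjusted p 0.105, 0.0677, 0.146 and 0.0947), with median centring in place of loess (mean 0.09, adjusted p 0.692) and with outlier spots kept (0.0519).

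Asl and Arg1 complete the part of the cycle in the cytosol. Asl encodes argininosuccinate lyase, which releases arginine and fumarate, and it had -0.81, 0.73, 0.42, -0.07 and 0.20 in livers 1 to 5. Livers 2 and 3 were high and liver 1 was low, so the mean of 0.09 ± 0.58 (SD, n = 5) did not pass (adjusted p 0.7534). Arg1 encodes arginase, which splits arginine into urea and ornithine, and it had 0.25, 0.41, 0.12 and 0.12 in livers 1, 2, 4 and 5, with a mean of 0.22 ± 0.14 (SD, n = 4) and an adjusted p of 0.08671. Its spot for liver 3 was marked, and with it kept liver 3 stood at -0.04 and the mean was 0.15 ± 0.15 (SD, n = 5).

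Proline and ornithine enzymes had means below the reference RNA in all 4 members, of which Prodh passed. Prodh encodes proline dehydrogenase, the first step of proline oxidation, and its log2 ratios were -1.04, -0.76, -0.37, -0.13 and -0.74 in livers 1 to 5. No liver reached 0, and livers 3 and 4 were nearest to it. The mean was -0.61 ± 0.36 (SD, n = 5), 1.52-fold lower in liver, with an adjusted p of 0.0101. Prodh2, which acts on hydroxyproline, averaged -0.19 ± 0.25 (SD, n = 5) with an adjusted p of 0.1848. Aldh4a1, which completes the oxidation of proline to glutamate, averaged -0.32 ± 0.32 (SD, n = 5) with an adjusted p of 0.06961, and it passed with median centring (0.0145) and when its probes were averaged (0.0126).

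Oat encodes ornithine aminotransferase, which links ornithine to proline and glutamate. Its log2 ratios were -2.07, -0.59, -0.76 and -0.35 in livers 1, 2, 4 and 5, and its spot on the array of liver 3 was marked as an outlier. Liver 1 lay far below the other livers, and none was above 0. The mean of -0.94 ± 0.77 (SD, n = 4) was the lowest of the 30 members, 1.92-fold lower in liver, but did not pass (adjusted p 0.06224). Without liver 1 the mean was -0.56 (n = 3) and passed (adjusted p 0.0136). With the marked spot kept, liver 3 stood at -0.43 and the mean of -0.86 passed (adjusted p 0.0418), as did the deposited ratios (-0.86, adjusted p 0.0482).

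Among enzymes of glutamine, glutamate, aspartate and alanine, 1 of the 5 tested passed. Gls2, the liver-type glutaminase that frees ammonia from glutamine in periportal cells, had -1.31, -0.73 and -0.50 in livers 1, 2 and 3, and its spots for livers 4 and 5 were marked. These livers all lay below 0. The mean was -0.85 ± 0.42 (SD, n = 3), 1.8-fold lower in liver, with an adjusted p of 0.01224. With the marked spots kept, livers 4 and 5 stood at -0.62 and -1.17, the mean was -0.88 ± 0.37 (SD, n = 5) and the adjusted p was 0.00282.

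The other enzymes of that group that were tested did not pass. Glud1, the glutamate dehydrogenase that releases ammonia in mitochondria, averaged -0.07 ± 0.16 (SD, n = 5) with an adjusted p of 0.5618. Got2, the mitochondrial aspartate aminotransferase, averaged 0.03 ± 0.09 (SD, n = 5), the smallest SD of any member, with an adjusted p of 0.7597. Gpt, the cytosolic alanine aminotransferase, had 0.06, 0.32, 0.29 and 0.05 in livers 2 to 5, with a mean of 0.18 ± 0.15 (SD, n = 4) and an adjusted p of 0.1582. Its spot for liver 1 was marked, and with it kept liver 1 stood at -0.18 and the mean was 0.10 ± 0.20 (SD, n = 5). Gpt2, its mitochondrial counterpart, was not tested, and with marked spots kept it averaged -0.35 ± 0.36 (SD, n = 5).

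Of the branched-chain enzymes, 2 of 3 passed below the reference RNA. Bckdha, the E1 alpha subunit of the branched-chain keto acid dehydrogenase, had -0.56, -0.42, -0.15, -0.23 and -0.35 in livers 1 to 5, with a mean of -0.34 ± 0.16 (SD, n = 5), 1.27-fold lower in liver, and an adjusted p of 0.01451. Ivd, which oxidises isovaleryl-CoA from leucine, had -0.68, -0.25, -0.23, -0.37 and -0.47, with a mean of -0.40 ± 0.19 (SD, n = 5), 1.32-fold lower in liver, and an adjusted p of 0.01174. Every liver lay below 0 for both genes. Bckdhb, the partner subunit of Bckdha in the same E1 enzyme, lay on both sides of 0, with a mean of -0.04 ± 0.18 (SD, n = 5) and an adjusted p of 0.7392. A brighter Bckdhb probe had 4 of 5 spots marked, and with these kept it averaged -0.16 ± 0.20 (SD, n = 5).

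The members whose values spread most over the livers did not pass the test of the mean. Tat encodes tyrosine aminotransferase, the first step of tyrosine breakdown and a textbook target of glucocorticoids. Its log2 ratios were 0.84, -0.95, -1.17 and -0.97 in livers 2 to 5, and its spot for liver 1 was marked. Liver 2 lay above the reference RNA and the other livers well below it. The mean was -0.56 ± 0.94 (SD, n = 4) with an adjusted p of 0.2937, and without liver 2 it was -1.03 (n = 3) with an adjusted p of 0.00389. With the marked spot kept, liver 1 stood at -0.43, between liver 2 and the others. The background-subtracted signal of Tat on the array of liver 2 was 57200 in liver and 31700 in the reference RNA, and on the array of liver 4 it was 21000 in liver and 56200 in the reference RNA.

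Sds encodes serine dehydratase, which turns serine into pyruvate and ammonia for glucose synthesis. Sds had -0.87, 0.79, -1.39, -1.49 and -0.79 in livers 1 to 5. Here too liver 2 alone lay above 0. The mean was -0.75 ± 0.91 (SD, n = 5) with an adjusted p of 0.1376. Without liver 2 it was -1.14 (n = 4) with an adjusted p of 0.00427. Tat and Sds were then 2 members below by 2-fold or more. For each of them this was the only 1 of 14 alternatives that passed, and it leaves out the only liver above 0.

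Got1, the cytosolic aspartate aminotransferase, had -1.28, 0.25 and -1.24 in livers 1, 2 and 4, and its spots for livers 3 and 5 were marked. Liver 2 again lay above 0. The mean was -0.76 ± 0.87 (SD, n = 3) with an adjusted p of 0.1677. With the marked spots kept, livers 3 and 5 stood at -0.84 and -0.80, and the mean of -0.80 ± 0.62 (SD, n = 5) passed (adjusted p 0.0335).

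**Figure D3:**
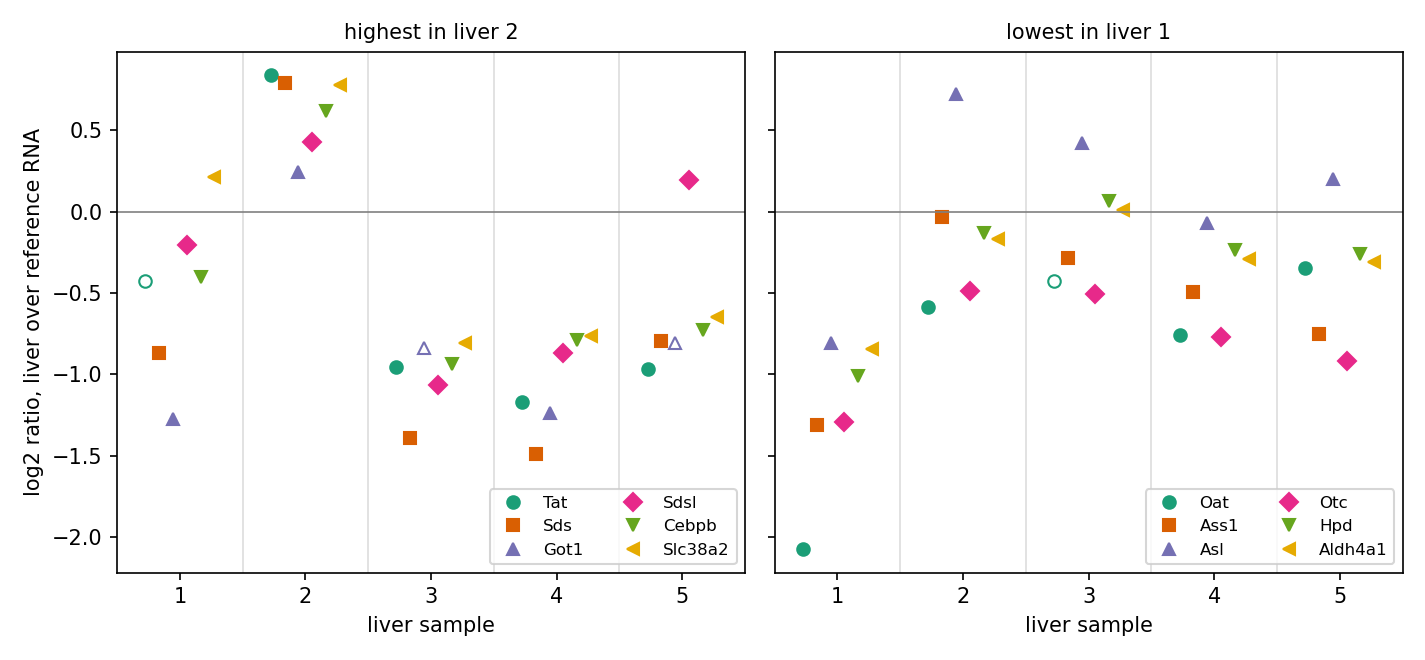
Log2 ratio of liver over reference RNA (vertical axis) in livers 1 to 5 (horizontal axis) for 2 sets of genes picked after their values were seen, those highest in liver 2 (left) and those lowest in liver 1 (right). Open symbols are spots that the scanner software marked as outliers and that were left out of the test. On the left, Tat, Sds, Got1, Sdsl, Cebpb and Slc38a2 lie above 0 in liver 2 and, at most, 0.21 in the other livers. On the right, Oat, Ass1, Asl, Otc, Hpd and Aldh4a1 have their lowest value in liver 1, an order that changed for some members with median centring.

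Sequence upstream of 4 members is shown, chosen after their values were seen: Tat and Got1 because both were highest in liver 2, Hal and Otc because they had the lowest adjusted p among members. Each is the 250 bases before the annotated start, read 5′ to 3′ on the gene's strand, from RefSeq on GRCm38.p6. They lie at chr8:109990186-109990435 (Tat, plus strand), chr19:43524606-43524855 (Got1, minus strand), chr10:93488518-93488767 (Hal, plus strand) and chrX:10252055-10252304 (Otc, plus strand). Capitals mark the motif matches described below.
Tat: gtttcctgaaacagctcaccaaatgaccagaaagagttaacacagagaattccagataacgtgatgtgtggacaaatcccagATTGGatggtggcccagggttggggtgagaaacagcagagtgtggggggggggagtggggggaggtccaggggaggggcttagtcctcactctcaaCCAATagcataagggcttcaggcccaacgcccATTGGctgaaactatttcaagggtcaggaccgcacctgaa
Got1: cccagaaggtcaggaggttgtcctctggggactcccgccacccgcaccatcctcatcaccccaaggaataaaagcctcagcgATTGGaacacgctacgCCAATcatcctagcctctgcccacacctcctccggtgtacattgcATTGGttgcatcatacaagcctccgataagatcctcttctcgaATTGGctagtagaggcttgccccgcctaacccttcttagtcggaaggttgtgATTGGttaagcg
Hal: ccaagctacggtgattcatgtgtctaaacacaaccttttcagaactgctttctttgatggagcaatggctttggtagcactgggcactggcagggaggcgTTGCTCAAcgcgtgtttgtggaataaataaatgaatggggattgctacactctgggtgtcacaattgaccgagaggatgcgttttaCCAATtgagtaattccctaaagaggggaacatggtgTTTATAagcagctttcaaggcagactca
Otc: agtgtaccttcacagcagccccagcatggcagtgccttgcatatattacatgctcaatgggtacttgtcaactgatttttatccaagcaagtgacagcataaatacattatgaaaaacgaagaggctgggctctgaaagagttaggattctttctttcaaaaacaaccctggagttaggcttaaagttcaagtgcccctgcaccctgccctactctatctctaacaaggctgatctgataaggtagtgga

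The motifs searched, on both strands, were the TATA box (TATAAA), the CCAAT box (CCAAT), the C/EBP site (TTGCNNAA), the cAMP response element (TGACGTCA), the glucocorticoid receptor core site (TGTTCT) and the HNF4 direct repeat (AGGTCANAGGTCA). Tat held 3 CCAAT matches, whose first bases lay 168, 72 and 40 bases before the start. Got1 held 5 CCAAT matches, at 168, 152, 107, 64 and 12 bases before the start. Hal held a C/EBP match at 150, a CCAAT match at 64 and a TATA match at 28 bases before the start, and no motif searched matched in the window of Otc. No matches overlapped in these windows. Over 32536 mouse promoters of the same length, 33.8% held CCAAT, 9.57% the C/EBP site, 12.3% the TATA box, 16.0% the glucocorticoid receptor core site, 1.56% the cAMP response element and 0.0338% the HNF4 repeat. Of 32 members with a promoter sequence, 15 held CCAAT, 3 the C/EBP site, 5 the TATA box and 3 the glucocorticoid receptor core site. The cAMP response element and the HNF4 repeat were each held by 0 of them. Members were counted by gene, at any promoter of the gene, and the shares by distinct promoter sequence, so the 2 are not in the same unit. A match describes the letters of the window and not a bound factor.

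Csad, the decarboxylase that commits cysteine to taurine, differed most between livers among the sulfur enzymes. It had -0.24, -1.85, -0.43, -1.02 and 0.09 in livers 1 to 5. Liver 2 was here the lowest and liver 5 the highest, an order opposite to that of Sds for liver 2. The mean was -0.69 ± 0.76 (SD, n = 5) with an adjusted p of 0.1017, and it passed below with median centring (-0.85, adjusted p 0.0258). Cdo1, the dioxygenase that starts cysteine oxidation, had 0.47, -0.19 and 0.57 in livers 2, 3 and 5, with a mean of 0.28 ± 0.41 (SD, n = 3) and an adjusted p of 0.2373. Its spots for livers 1 and 4 were marked, and with them kept these livers stood at 0.14 and -0.37 and the mean was 0.12 ± 0.40 (SD, n = 5).

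Neither of the other tyrosine enzymes tested passed. Hpd, which makes homogentisate, had -1.01 in liver 1 and between -0.26 and 0.07 in the other livers, with a mean of -0.31 ± 0.41 (SD, n = 5) and an adjusted p of 0.1266. It passed below with median centring (mean -0.44, adjusted p 0.025). Fah, the last enzyme of the path, lay above 0 in livers 1 to 4 and at -0.03 in liver 5, with a mean of 0.21 ± 0.15 (SD, n = 5) and an adjusted p of 0.07093. Without liver 5 the mean of Fah was 0.27 (n = 4) and passed above (adjusted p 0.0462). Hgd and Gstz1, the steps between Hpd and Fah, were not tested, and with marked spots kept they averaged -0.17 ± 0.38 and -0.19 ± 0.11 (SD, n = 5 each).

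None of the 4 tryptophan enzymes tested passed. Tdo2, the first and rate-limiting step of the kynurenine path in liver, had -0.16, 0.40 and -0.74 in livers 1 to 3, with a mean of -0.17 ± 0.57 (SD, n = 3) and an adjusted p of 0.6008. A brighter Tdo2 probe had all 5 spots marked, and with these kept it had 0.23 in liver 2 and between -1.01 and -0.39 in the others. Both probes were highest in liver 2 and lowest in liver 3. Kmo, which hydroxylates kynurenine, was also highest in liver 2, at 0.51, with a mean of 0.08 ± 0.26 (SD, n = 5) and an adjusted p of 0.5827. Kynu, which cleaves kynurenine metabolites, was lowest in liver 2, at -0.71, with a mean of -0.11 ± 0.40 (SD, n = 5) and an adjusted p of 0.5985. Acmsd, which diverts the path from NAD synthesis, was the dimmest member, and the liver channel was well above background on 4 of 5 arrays. It averaged -0.18 ± 0.19 (SD, n = 5) with an adjusted p of 0.123, and without liver 2 it passed below (-0.26, n = 4, adjusted p 0.031).

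In glycine and glyoxylate metabolism, Gldc, the decarboxylase of the glycine cleavage system, stayed within -0.21 and 0.03, with a mean of -0.09 ± 0.11 (SD, n = 5) and an adjusted p of 0.3929. Agxt, which turns glyoxylate into glycine, was not tested, and with marked spots kept it averaged 0.14 ± 0.29 (SD, n = 5).

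The spread between livers differed widely among members. The median SD over livers was 0.32 for the 29 members tested for spread, against 0.19 for all 13202 genes tested and 0.19 for the 3199 of these with a median liver signal of 1000 or more. Set against the prior variance that limma gives for its intensity (F test), the variance of 8 members reached an unadjusted p under 0.05 (27.6%), as did that of 6.01% of all genes and 10.8% of the bright genes. After adjustment, 0 of the 29 members and 0% of all genes passed. By the SD itself, Tat stood at percentile 99.5 of all genes tested, Sds at 99.4, Got1 at 99.3, Oat at 98.9, Csad at 98.8, Asl at 97.2, Tdo2 at 97 and Ass1 at 95.5. At the other end, 8 of the 30 members tested lay under percentile 50, the lowest being Got2 at 10.9. With median centring in place of loess, Tat and Sds passed the variance test (adjusted p 0.00552 and 0.00703), as did 240 of all genes.

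The lowest values of members were mostly those of liver 1. Of the 22 members with a value in every liver, 14 (63.6%) had their lowest value in liver 1, against 21.6% of 13699 genes, and 8 (36.4%) had their highest in liver 2, against 23.2%. The median over members was -0.50 in liver 1, -0.01 in liver 2, -0.10 in liver 3, -0.13 in liver 4 and -0.18 in liver 5. The place of liver 1 depended on the normalization: with median centring it was the lowest for 2 of 22 members, the median over members was -0.49 in liver 1 and -0.66 in liver 5, and the median over all genes was 0.01 in liver 1 and -0.26 in liver 5. The array of liver 1 had the lowest median signal of the 5, at 78.4 in liver and 75.5 in the reference RNA, where the others had 111 to 177 in liver and 108 to 151 in the reference RNA, and the part of this was not tested. Liver 2 was the highest for 7 of 22 members with median centring, against 19.4% of all genes. Each liver had its own array and slide, so the sample and its array cannot be told apart.

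Across the 22 members, Pearson's r between 2 livers ran from 0.12 (livers 1 and 2) to 0.83 (livers 3 and 4). Over all 13699 genes it ran from 0.389 (livers 1 and 3) to 0.754 (livers 3 and 4). All pairs share the reference RNA, and genes are not independent replicates, so these values are a description. For members, the pairs with liver 2 were the 4 lowest, at 0.12 to 0.203.

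A second probe was tested for 5 members, and it gave a mean on the same side of 0 as the brighter one in each. The other probe of Otc averaged -0.45 ± 0.46 beside -0.80 ± 0.33 for the brighter one, and that of Aldh4a1 averaged -0.66 ± 0.27 beside -0.32 ± 0.32 (SD, n = 5 each). Bckdha had -0.49 ± 0.12 (SD, n = 4) beside -0.34 ± 0.16, and Ivd had -0.35 ± 0.14 beside -0.40 ± 0.19 (SD, n = 5). The low value of Csad in liver 2 was seen by both probes, at -1.30 for the other probe beside -1.85.

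**Figure D4:**
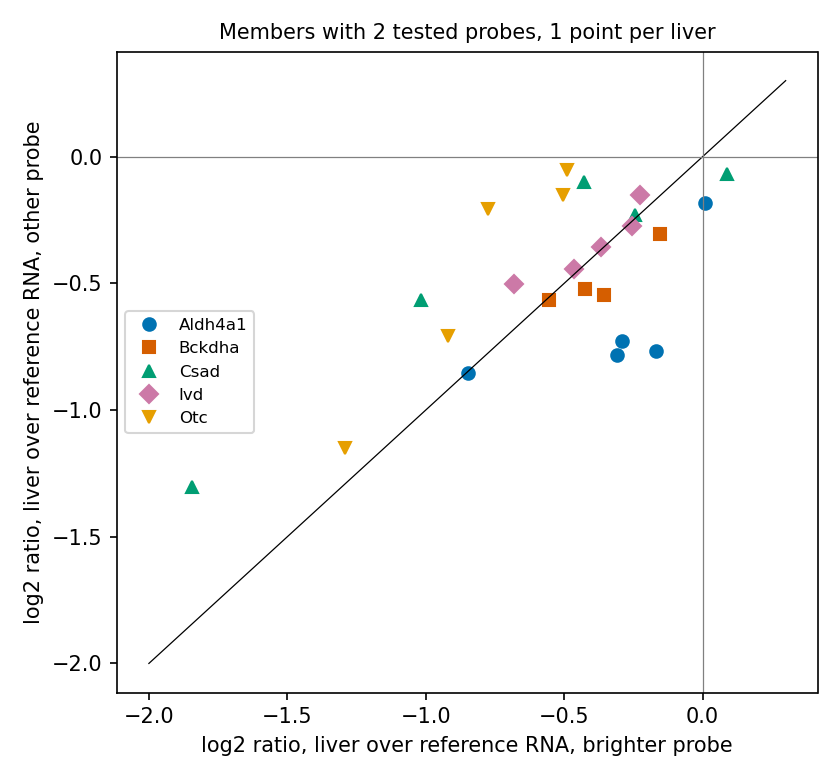
Log2 ratio of liver over reference RNA at the other tested probe (vertical axis) against the brighter probe (horizontal axis) for Aldh4a1, Bckdha, Csad, Ivd and Otc, with 1 point per liver and the line of equal values. All points but 2 lie below 0 at both probes, Otc lies above the line in each liver and Aldh4a1 on or below it.

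The scanner software's outlier marks fell more often on bright spots. Of 175 spots at the brightest probe of each of the 35 members, 37 were marked (21.1%), against 3.54% of spots of all named probes and 17.2% of spots of named probes with a median liver signal of 1000 or more. The 5 members that were not tested had at least 3 of 5 spots marked, and none of them passed with these spots kept. In the tyrosine group, 2 of 5 genes (Hgd and Gstz1) are therefore known only through probes with mostly marked spots.

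Of 74 other genes of amino acid use, transport and control, 67 were tested. Below the reference RNA 24 passed (35.8%, against 12.8% of all genes) and above it 2 (2.99%, against 14.2%), with a median of -0.23. Among 41 other catabolic genes, 13 passed below and 2 above. Those below included Shmt1, the cytosolic serine hydroxymethyltransferase, at -0.72 ± 0.31 (SD, n = 4, adjusted p 0.006293), the asparaginase gene Aspg at -0.57 ± 0.14 (SD, n = 5, adjusted p 0.001846) and Aadat, which transaminates kynurenine and aminoadipate, at -0.50 ± 0.28 (SD, n = 5, adjusted p 0.01169).

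The 2 that passed above were Bckdk and Kyat1. Bckdk encodes the kinase that phosphorylates and inhibits the branched-chain keto acid dehydrogenase, and it had 0.50, 0.29, 0.46, 0.58 and 0.40 in livers 1 to 5. All livers lay above 0, where those of Bckdha, the subunit that the kinase phosphorylates, all lay below. The mean of Bckdk was 0.44 ± 0.11 (SD, n = 5) with an adjusted p of 0.004623, which became 0.0764 with median centring (mean 0.33). Kyat1, a kynurenine aminotransferase, averaged 0.43 ± 0.36 (SD, n = 4) with an adjusted p of 0.04722, and its call ended under 10 of 14 alternatives.

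Among 14 transporters, 6 passed below and 0 above. Slc25a13, the mitochondrial aspartate-glutamate carrier citrin that supplies aspartate to Ass1, had -1.13, -0.82 and -0.66 in livers 1, 2 and 5, with a mean of -0.87 ± 0.24 (SD, n = 3, adjusted p 0.004143). Its spots for livers 3 and 4 were marked. Their background-subtracted signals, not normalized between the dyes, were 3710 and 3050 in liver against 3820 and 4660 in the reference RNA. The median signals of these arrays were 177 and 125 in liver against 121 and 132 in the reference RNA. Under the alternatives that gave a value, the mean of Slc25a13 ran from -1.08 to -0.64. Slc25a22, a mitochondrial glutamate carrier, averaged -0.63 ± 0.33 (adjusted p 0.007495), the ammonium transporter Rhbg -0.58 ± 0.31 (adjusted p 0.008511) and Aqp9, a channel for glycerol and urea, -0.53 ± 0.35 (adjusted p 0.01581; SD, n = 5 each). Slc38a2, an amino acid transporter induced by amino acid shortage, had the largest SD of this list, with 0.21, 0.78, -0.81, -0.76 and -0.65 in livers 1 to 5 and a mean of -0.24 ± 0.71 (SD, n = 5, adjusted p 0.503).

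Among 12 regulators, 5 passed below and 0 above. Onecut1, a hepatocyte transcription factor, had -1.13, -0.74, -0.83, -1.09 and -0.99 in livers 1 to 5 and a mean of -0.96 ± 0.16 (SD, n = 5, adjusted p 0.0004148). Klf15, a known activator of amino acid catabolism, averaged -0.82 ± 0.50 (adjusted p 0.01177), Ppara, the fasting-responsive nuclear receptor, -0.75 ± 0.60 (adjusted p 0.03438) and Foxo1, the insulin-regulated forkhead factor, -0.67 ± 0.15 (adjusted p 0.001343; SD, n = 5 each). The call for Ppara ended without liver 1 or without liver 5 (adjusted p 0.093 and 0.0773). Cebpb, a factor induced in the acute phase and by fasting signals, had the largest SD of this list, with -0.40, 0.62, -0.93, -0.79 and -0.73 in livers 1 to 5, and its mean of -0.45 ± 0.63 (SD, n = 5) did not pass (adjusted p 0.1744). Without liver 2, it averaged -0.71 with an adjusted p of 0.00661.

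**Figure D5:**
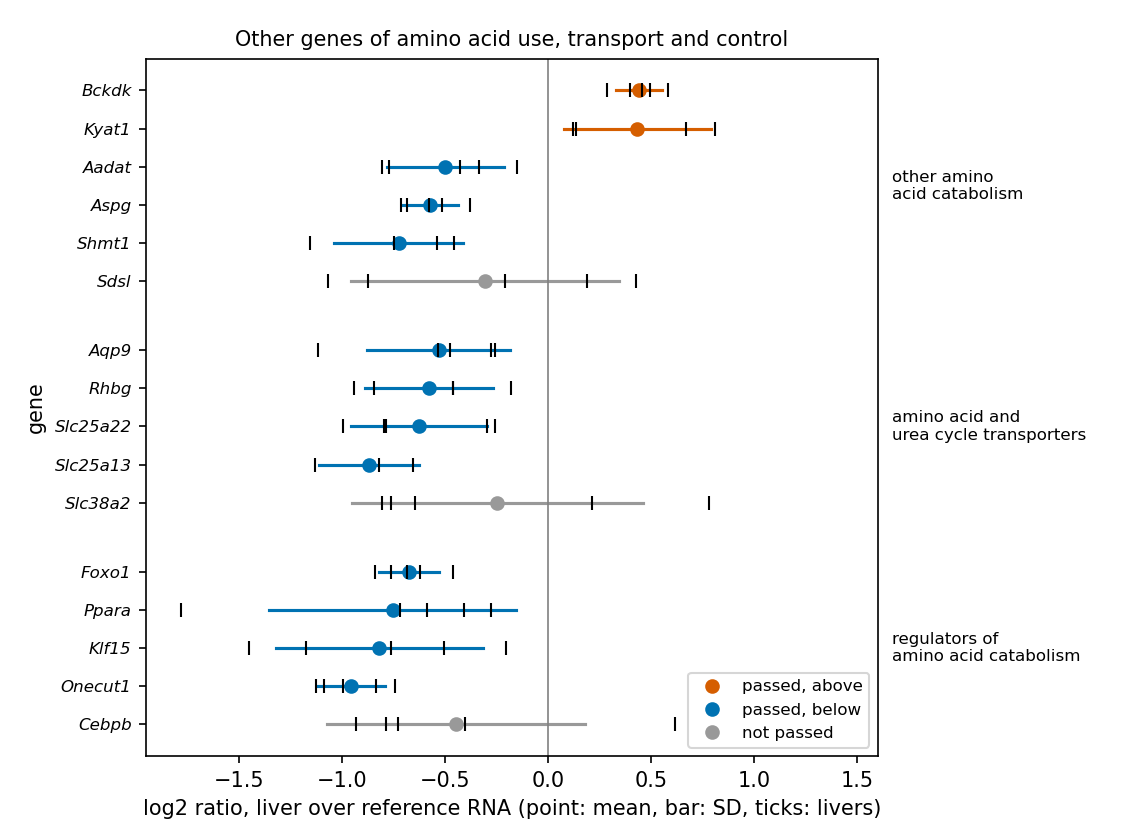
Log2 ratio of liver over reference RNA (horizontal axis) for genes of the 3 related lists (vertical axis), with the mean as a point, the SD as a bar and each liver as a tick. Bckdk and Kyat1 lie above 0, the other genes that passed lie below it, and Sdsl, Slc38a2 and Cebpb have ticks on both sides.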

How the data were processed

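Total RNA of 5 livers in 1 group was measured against a common reference RNA. The deposited scanner files hold median spot and background intensity values for both channels, which the file headers credit to Agilent Feature Extraction (version 11.5.1.1). They also hold the processed intensities, background-subtracted and dye-normalized per the file headers, and their deposited log10 ratio. The deposited table holds log2 ratios, 99.7% of them within 0.001 of the processed log2 ratio of Cy5 over Cy3, which settles scale and direction. Livers 1 to 5 had column medians of -0.03, -0.07, -0.08, -0.10 and -0.03 there, not 0. The files hold no mean spot intensity, which the plan had named, so medians were used.

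In limma 3.58.1 (R 4.3.3), background was corrected with normexp (offset 50) and each array was normalized by loess. Control spots and outlier spots (2.32% to 4.05% per array) had weight 0 and were then left out, and no spot was saturated. Spots of a probe were averaged. Tested probes stood well above background in 1 channel or both on 3 or more arrays and had 3 or more values, and the brightest tested probe stood for its gene. Probes well above background made up 77.3% to 81.2% in liver and 69.9% to 78.4% in the reference RNA. Probes were named by RefSeq accession through a GRCm38.p6 table: of 41174 probes, 24375 matched and 16799 did not, giving 17016 symbols. The fit had an intercept only, with moderated variances (trend, robust) and two-sided tests. The script was tested on simulated data.

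The members and lists were chosen with earlier results of these data known. All members are named, and of each related list up to 4 highest and 4 lowest genes that passed, and the one with the largest SD. A gene of a related list is not reported here. Alternatives changed normalization, background, filters, probe choice, outlier spots and moderation, or left out a liver.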

Additional observations from a re-analysis of the deposited data

Results flagged for a closer look

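Among the 26 members with 4 or 5 values, 1 had a liver that stood apart by Dixon's criterion for a single outlying value (3.85%), and chance alone gives about 1 in 20 groups. This was Tat in liver 2, at a log2 ratio of 0.84, where livers 3, 4 and 5 lay between -1.17 and -0.95 (n = 4). The gap to the nearest of them took up 0.892 of the whole range. Liver 1 was not part of this comparison because its spot was marked as an outlier, and with the spot kept it stood at -0.43. That value is nearer to liver 2 than those of livers 3, 4 and 5, so the flag holds only for the 4 values without liver 1.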

How the results depend on the processing

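Of the 30 members tested, 19 kept their side of the threshold under all alternatives that gave a value, 9 passed under at least 1 alternative after not passing, 2 (Ass1 and Nags) lost their call under at least 1, and none reversed. Hal, Otc, Gls2, Prodh, Bckdha and Ivd passed below under every alternative that gave a value. With median centring, members above numbered 0, members below 11, members below by 2-fold or more 1 and members that passed the variance test 2, and with outlier spots kept members above numbered 0. Over all genes tested, median centring gave 1673 above and 2078 below, against 2119 and 1904 with loess. Related genes above numbered 0 with median centring, and 1 with Agilent processed signals, deposited log2 ratios, arrays scaled to each other, averaged probes or no trend or robust prior. Leaving out each liver in turn gave 0 to 1 members above, 5 to 9 below, 0 to 2 below by 2-fold or more, 0 passing the variance test, 1 to 3 related genes above and 18 to 22 below, and a median over members of -0.28 to -0.12. Over all genes, of which 14741 to 14821 were tested in these fits, 1189 to 1853 passed above and 1012 to 1434 below. With outlier spots kept, another, brighter probe stood for Aldh7a1 (-0.30, against 0.12 for the probe tested) and for Bcat2 (-0.43, against 0.04). Without liver 1, the probe tested for Slc38a4 (-0.52, n = 3) had too few values and another probe stood for the gene (0.0322, n = 4), so these reversals set different probes of a gene against each other. For the other changes the cause was not tested. Of 67 related genes, 44 kept their side throughout, 9 lost a call, 12 gained one and 3 reversed. Without the trend and robust prior, an alternative to the variance test chosen after seeing the data, 0 members passed it. The slide as a block was not run because each of the 5 slides held 1 array. No paired analysis was possible because all samples form 1 group. Acmsd is close to background, which limits its ratio.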
